A study of Mus musculus with 20 samples.

Results

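The genes described here are 10 YAP and SRF target genes, namely Ccn1, Ccn2, Ankrd1, Amotl2, Lats2, Srf, Vcl, Tagln, Acta2 and Cnn1. They were chosen with earlier results of these data known. They were picked by gene symbol, and each symbol matched 1 of the 55421 transcripts in the read count tables of 20 mouse RNA-seq libraries. All 10 passed the filter on low counts in every comparison. The study asked what switching on the circadian activators CLOCK and BMAL1 does to cells that do not yet run a circadian clock. It measured 10 libraries of induced presomitic mesoderm (iPSM) colonies, a culture model of the embryonic tissue that is cut into somites by the segmentation clock, and 10 libraries of mouse embryonic stem cells (ESC).

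Each cell type had 3 kinds of line. In iPSM the tetO-Clock/Bmal1 lines were clones 12 and 20 and the tetO-Clock/Bmal1DN lines, in which DN stands for a dominant-negative BMAL1, were clones 7 and 19. In ESC the tetO-Clock/Bmal1 lines were clones 1 and 7 and the tetO-Clock/Bmal1DN lines were clones 5 and 6. The control line without a tetO transgene gave 1 library with and 1 library without doxycycline (dox) per cell type, so it has no replicate. Treated iPSM received 1000 ng/mL dox for 2 hours and treated ESC received 500 ng/mL dox for 6 hours, and every clone also gave an untreated library. All iPSM colonies were made from E14TG2a cells with a Hes7-promoter luciferase reporter, kept without feeder cells, and all ESC were of the KY1.1 line, for which the use of feeder cells is not given in the sources used here. The cell types therefore differ in parental line, dose and time as well, and these cannot be told apart. Replicates are clones with separate numbers, and p-values measure the spread between clones within a group. The main fits had no clone term, so the treated and untreated libraries of a clone counted as independent in that spread.

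YAP and its relative TAZ are coactivators that enter the nucleus when the kinases of the Hippo pathway are inactive and bind DNA through TEAD factors. SRF binds the CArG box, either with the MRTF cofactors, which are released when actin polymerises, or with the TCF cofactors, which are switched on by ERK. Both systems respond to cell spreading and tension and share several targets. In mouse presomitic mesoderm cells in culture, YAP signalling is known to set whether the segmentation clock oscillates.

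Promoter sequences are shown because these genes are textbook targets of TEAD factors or SRF. RefSeq windows on the GRCm38.p6 build, from 250 bases before to 50 bases after the start site, were found for 8 of the 10 genes (9 windows). On either strand, the TEAD motif GGAATG was found for 6 of them, namely Acta2, Amotl2, Ankrd1, Ccn1, Lats2 and Vcl, and it occurs in 14.7% of 32851 windows of that length. The RefSeq starts of Amotl2, Acta2 and Ankrd1 lie 136, 217 and 255 bases downstream of the starts of the counted transcripts. Their TEAD matches therefore lie inside those transcripts, and the Lats2 match lies past the start. Only the matches of Ccn1 and Vcl lie upstream of the counted transcript. The CArG box was found for Srf and Vcl, against 1.63% of all windows. The E-box CACGTG, the motif that CLOCK and BMAL1 bind, was found for Lats2, 10 bases before the start, against 7.15% of all windows. The AP-1 motif TGANTCA was found for none of the 8 genes, against 7.81% of all windows. No match of one motif overlapped a match of another in these windows. In the stretches below, capitals mark GGAATG, its reverse complement CATTCC, or the CArG box. They come from chr3:145649986-145650135 on the minus strand (Ccn1), chr9:102717726-102717755 on the plus strand (Amotl2), chr17:46556183-46556282 on the minus strand (Srf) and chr14:20929158-20929277 on the plus strand (Vcl).
Ccn1: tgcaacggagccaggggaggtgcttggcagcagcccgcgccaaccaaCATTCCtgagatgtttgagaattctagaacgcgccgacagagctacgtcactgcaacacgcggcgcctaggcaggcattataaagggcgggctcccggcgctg
Amotl2: cctgaaactctcaCATTCCtggcatagcag
Srf: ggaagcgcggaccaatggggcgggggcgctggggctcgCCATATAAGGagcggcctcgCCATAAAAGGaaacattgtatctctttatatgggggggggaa
Vcl: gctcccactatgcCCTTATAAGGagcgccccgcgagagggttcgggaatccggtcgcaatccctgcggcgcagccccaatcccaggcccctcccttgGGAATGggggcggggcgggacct

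The libraries held 38.2 to 57.3 M (mega) counts. Levels are given in CPM, counts per M counts scaled with TMM factors over the 20 libraries. The labels fitted the markers: the summed level of 10 presomitic mesoderm markers was 748 to 1495 CPM in iPSM and 23.3 to 73.1 CPM in ESC, with Hes7, Msgn1 and Tbx6 at 0 in some ESC libraries, and that of 8 stem cell markers was 213 to 428 CPM in iPSM and 1782 to 2541 CPM in ESC. Clock and Arntl, the mouse symbol of Bmal1, had more counts with dox in all 8 transgenic clones, although these counts include the transgenes and Arntl in iPSM ClockBmal1DN clone 19 reached only 142.6 CPM, against 61.9 CPM untreated. The untreated iPSM control library stood apart, with reads on 69.4% of transcripts against 43.8% to 54% in the other 19 libraries.

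RNA of 2 of the 10 genes, both for secreted matricellular proteins, fell after 2 hours of dox in Clock/Bmal1 iPSM. Ccn2 and Ccn1, which encode the matricellular proteins CTGF and CYR61 and are the most used readouts of YAP activity, both fell, to 0.390 and 0.460 of their untreated level. They were 2 of 10 genes called, both lower, where 1.02% of the 24805 transcripts tested were called and 0.0282% were called lower (7 in all). Because the genes were chosen with earlier results known, their share beside that of all transcripts is a description only. The median log2 fold change of the 10 genes was -0.238, against -0.0208 over all transcripts, and all 10 values were negative. In bulk RNA, fewer cells of a type and less RNA per cell cannot be told apart.

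Ccn2 (ENSMUST00000020171.11, gene body chr10:24595442-24598678 on the plus strand of mm10) had 2.91 and 2.38 CPM in treated clones 12 and 20, against 6.41 and 7.34 CPM in the same clones untreated. The treated clones lay below all 8 other iPSM libraries, which ranged from 6.13 to 10.8 CPM. The log2 fold change was -1.36 ± 0.236 (SE, n = 2 clones, edgeR adjusted p = 0.0182), or 0.390 of the untreated level. The call was lost without the treated clone 20 library (-1.23, adjusted p = 0.248).

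Ccn1 (ENSMUST00000029846.4, chr3:145646976-145649981 on the minus strand of mm10) had 12.8 and 11.5 CPM in treated clones 12 and 20, against 21.2 and 32.4 CPM untreated. Both treated libraries again lay below every other iPSM library, and the untreated clones differed from each other more than the treated ones did. The log2 fold change was -1.12 ± 0.205 (SE, n = 2 clones, edgeR adjusted p = 0.0247), or 0.460 of the untreated level. Leaving out 1 library ended the call in 3 cases: it was -1.20 (adjusted p = 0.0878) when treated clone 12 was dropped, -1.05 (adjusted p = 0.313) for treated clone 20, and -0.78 (adjusted p = 0.0526) for untreated clone 20.

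Amotl2 (ENSMUST00000035121.13, chr9:102717668-102733418 on the plus strand of mm10) encodes an angiomotin family scaffold that binds YAP and holds it back, and it is itself a YAP target. It had 45.4 and 36.8 CPM in treated clones 12 and 20, against 66.7 and 75.1 CPM untreated, and the treated clones were the lowest of the 10 iPSM libraries. The change of -0.76 ± 0.162 on the log2 scale narrowly missed the threshold (SE, n = 2 clones, edgeR adjusted p = 0.0557), which placed Amotl2 eighth among all transcripts with lower levels. It passed with clone as a block (-0.77, adjusted p = 0.0225), with DESeq2 (adjusted p = 0.00317) and when untreated clone 12 was dropped (-0.85, adjusted p = 0.0191). The 7 transcripts that did fall were, beside Ccn1 and Ccn2, the Wnt targets Sp5 (-1.05, adjusted p = 0.00299) and Dkk1 (-1.33, adjusted p = 0.0327), and Klhl6 (-0.93, adjusted p = 0.0187), Zfp503 (-1.15, adjusted p = 0.0296) and Pcdh18 (-0.74, adjusted p = 0.0450).

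**Figure D1:**
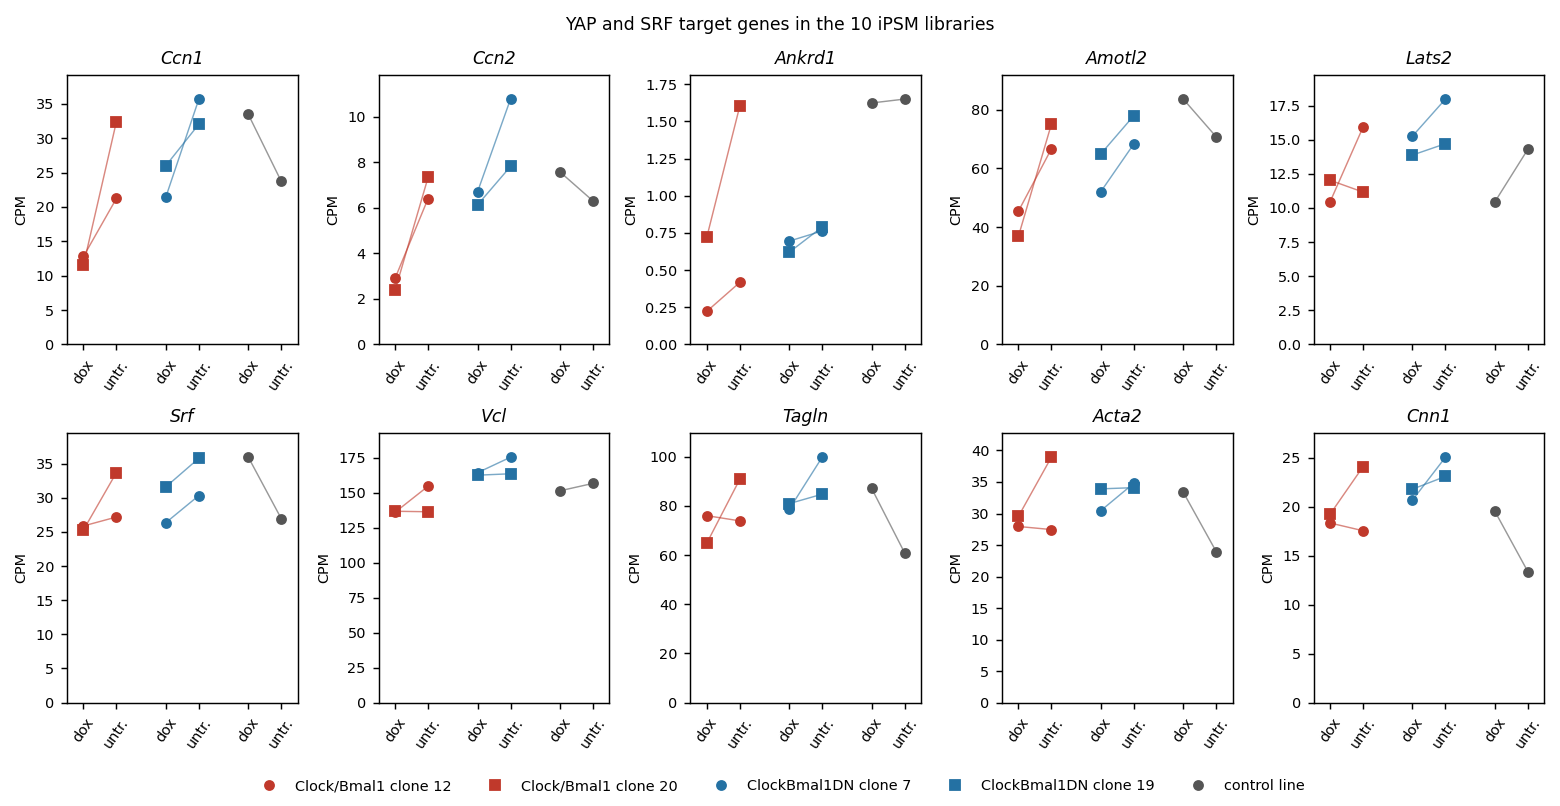
Level of the 10 genes in each iPSM library, in CPM on linear axes from 0. Lines join the treated and untreated library of a clone. Both treated Clock/Bmal1 libraries lie below the 8 other libraries for Ccn1, Ccn2 and Amotl2, while the control line runs the other way for these 3 genes.

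Ankrd1, which encodes a nuclear and sarcomeric ankyrin repeat protein of striated muscle, was close to silent in iPSM. It had 0.222 and 0.720 CPM in treated clones 12 and 20, against 0.417 and 1.60 CPM untreated, and its log2 fold change of -1.04 ± 0.621 did not pass. Clone 20 treated was above clone 12 untreated, so the groups overlapped. Lats2, the Hippo kinase that inactivates YAP and is induced by it, had 10.4 and 12.0 CPM in treated clones, against 15.9 and 11.2 CPM untreated (-0.25 ± 0.208). Its clones moved in opposite directions.

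The SRF side of the group did not pass in iPSM. Srf itself had 25.9 and 25.3 CPM in treated Clock/Bmal1 clones, against 27.2 and 33.7 CPM untreated (log2 -0.23 ± 0.165). Tagln (transgelin), Acta2 (smooth muscle actin) and Cnn1 (calponin 1), which bind or form actin filaments in smooth muscle, changed by -0.20 ± 0.152, -0.18 ± 0.173 and -0.13 ± 0.176. Their values overlapped between treated and untreated clones. Vcl, which encodes vinculin, the link between actin and adhesion sites, had -0.07 ± 0.126 (all 5 SEs with n = 2 clones, edgeR adjusted p = 1 each). Acta2 shares its coding sequence closely with the other actin genes, and how reads shared between them were counted is not given in the sources used here.

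In ClockBmal1DN iPSM the same genes had lower values with dox, but by less and without passing the test. The 2 kinds of line also differed in transgene level. Arntl was 828 and 142.6 CPM in treated ClockBmal1DN clones 7 and 19, against 2966 and 4282.5 CPM in treated Clock/Bmal1 clones 12 and 20. Clock was 954 and 986 CPM, against 1614 and 2249 CPM. The part of these levels in the dox effects was not tested. In ClockBmal1DN clones 7 and 19, Ccn2 had 6.70 and 6.13 CPM treated, against 10.8 and 7.82 CPM untreated, a log2 fold change of -0.53 ± 0.227 (unadjusted p = 0.0398, adjusted p = 1 with edgeR). Ccn1 had 21.5 and 26.0 CPM treated, against 35.7 and 32.0 CPM untreated (-0.51 ± 0.202, unadjusted p = 0.0287, adjusted p = 1). Amotl2 had 52.1 and 65.0 CPM treated, against 68.4 and 78.0 CPM untreated (-0.32 ± 0.161, unadjusted p = 0.0745, adjusted p = 1). In all 3 genes both clones were lower with dox, and the treated and untreated clones of this line did not overlap for any of them.

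None of the 10 genes passed in ClockBmal1DN iPSM with edgeR or with DESeq2, 2 had an unadjusted p under 0.05, and 0.00403% of all transcripts were called. All 10 values were negative with a median of -0.195, against 0.000397 over all transcripts. The control line went the other way for the same 3 genes. Ccn2 had 7.58 CPM treated and 6.31 CPM untreated there, Ccn1 had 33.5 CPM treated and 23.7 CPM untreated, and Amotl2 had 83.7 CPM treated and 70.8 CPM untreated, with no replicate. Scaled with TMM factors of the 10 iPSM libraries alone, in place of the 20 libraries behind the CPM levels, these differences were 0.15, 0.39 and 0.13 on the log2 scale, while the median over all transcripts in that line was -0.0992. On that scaling it was also higher with dox for Srf (0.30), Tagln (0.41), Acta2 (0.37) and Cnn1 (0.43), and its untreated library is the one that stood apart. Without the control line Ccn2 (-1.36, adjusted p = 0.0266) and Ccn1 (-1.12, adjusted p = 0.0377) still passed in Clock/Bmal1 iPSM.

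The difference between the dox effects of Clock/Bmal1 and ClockBmal1DN was tested directly in iPSM. It was -0.83 ± 0.325 for Ccn2, -0.61 ± 0.286 for Ccn1 and -0.45 ± 0.228 for Amotl2 on the log2 scale, each with an edgeR adjusted p of 1.00. None of the 10 genes passed with edgeR or DESeq2, 1 had an unadjusted p under 0.05, and 0.278% of all transcripts were called. The larger fall in Clock/Bmal1 clones was therefore not separated from the smaller difference in ClockBmal1DN clones. The 10 presomitic mesoderm markers summed to 748 and 881 CPM in treated Clock/Bmal1 clones 12 and 20, against 809 and 1163 CPM untreated, and to 1087 and 1308 CPM in treated ClockBmal1DN clones 7 and 19, against 1252 and 1344 CPM untreated. Their part in the lower Ccn1 and Ccn2 was not tested. Before dox, Clock/Bmal1 and ClockBmal1DN clones differed at none of the 10 genes (edgeR, 0 of 24805 transcripts called, which is 0%; no gene of the group had an unadjusted p under 0.05, and DESeq2 called none).

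**Figure D2:**
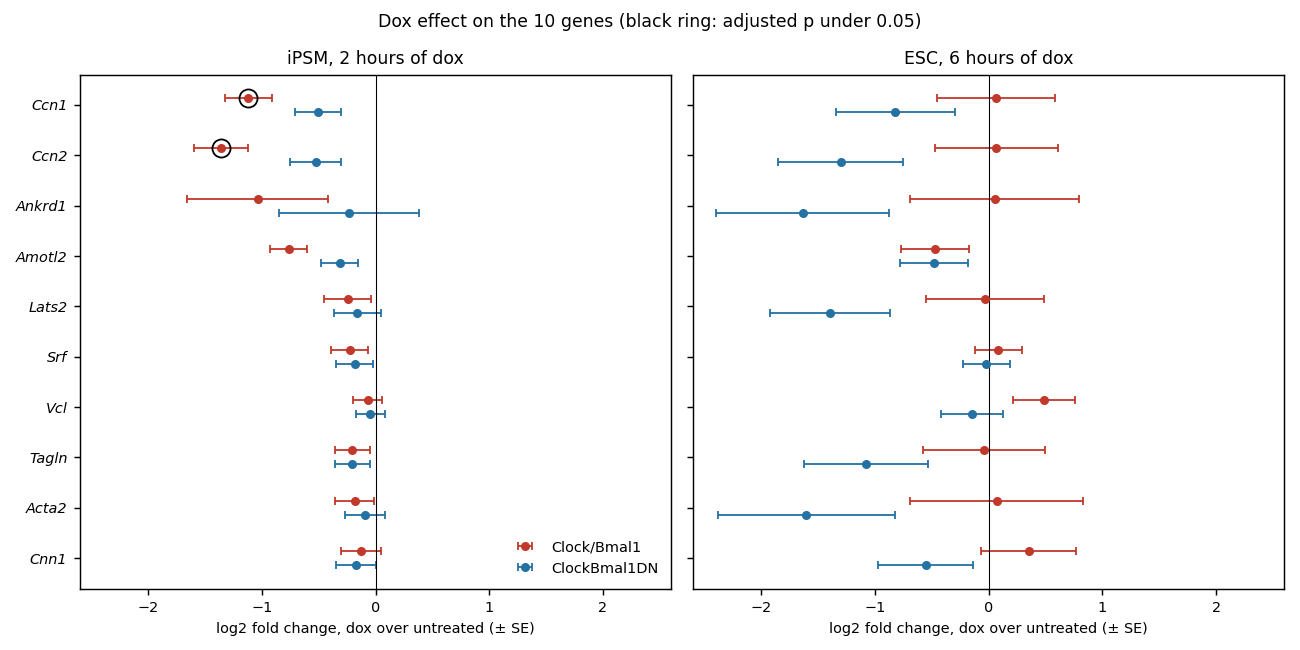
Log2 fold change of dox over untreated for the 10 genes in iPSM (left) and ESC (right), with SE bars from edgeR and n = 2 clones per point. Rings mark the 2 values that passed, Ccn1 and Ccn2 in Clock/Bmal1 iPSM. The ESC bars are wider than the iPSM bars for all 10 genes.

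Among further genes of both pathways, 3 rose and none fell in Clock/Bmal1 iPSM. Over all 24805 transcripts tested, 0.996% were called higher and 0.0282% lower. Of 16 other YAP and TAZ targets tested, 1 rose and 0 fell, with a median log2 fold change of -0.162. The riser was F3, which encodes tissue factor, the trigger of blood clotting. F3 had 12.1 and 15.9 CPM in treated clones 12 and 20, against 3.26 and 3.23 CPM untreated, and it was 3.11 CPM treated and 2.39 CPM untreated in the control line. The change was 2.14 ± 0.248 (SE, n = 2 clones, edgeR adjusted p = 0.00148). Ccn1, Ccn2 and F3, all counted as YAP targets, thus went in different directions in the same libraries.

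Of 17 other cytoskeletal targets of SRF and MRTF, 1 rose and 0 fell, with a median of -0.169. It was Fhl2, which encodes a LIM domain cofactor of actin-linked transcription, at 27.2 and 33.3 CPM in treated clones, against 17.2 and 16.0 CPM untreated (0.89 ± 0.162, adjusted p = 0.0239). That call was lost without treated clone 20 (0.72, adjusted p = 0.324). Of 9 immediate early targets of SRF and TCF, 1 rose and 0 fell, with a median of -0.194. It was Junb, a subunit of the AP-1 transcription factor, at 48.6 and 56.4 CPM in treated clones, against 12.3 and 11.9 CPM untreated (2.14 ± 0.160, adjusted p = 0.000107). With clone as a block 2 of these 9 genes rose, where 1.51% of all transcripts were called in either direction.

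In ClockBmal1DN clones 7 and 19, F3 had 2.33 and 3.10 CPM treated, against 3.96 and 3.32 CPM untreated, and Junb had 9.01 and 9.19 CPM treated, against 10.9 and 10.9 CPM untreated. The dox effect of Clock/Bmal1 exceeded that of ClockBmal1DN by 2.55 ± 0.349 for F3 (edgeR adjusted p = 0.0132) and 2.39 ± 0.222 for Junb (adjusted p = 0.00205). The F3 difference missed the threshold without treated Clock/Bmal1 clone 20 and without any 1 of the 4 ClockBmal1DN libraries (adjusted p = 0.0644 to 0.140). Neither the 20 Hippo pathway components nor the 6 SRF cofactors had a gene that passed in Clock/Bmal1 iPSM, with 2 and 1 genes at an unadjusted p under 0.05 and medians of -0.0309 and -0.0127.

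In ESC, 6 hours of Clock and Bmal1 gave no call among the 10 genes. With edgeR 0.422% of the 22500 transcripts tested were called (0.404% higher and 0.0178% lower), and no gene of the group had an unadjusted p under 0.05 or passed with DESeq2. The median log2 fold change was 0.0635, against -0.00752 over all transcripts. For Ccn2 and Ccn1 the clones differed from each other more than treated from untreated. Ccn2 had 163 and 340 CPM in treated clones 1 and 7, against 146 and 322 CPM untreated. Ccn1 had 101.2 and 269.9 CPM treated, against 114 and 234 CPM untreated. Clone 7 was high and clone 1 low for both genes, whatever the treatment.

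Besides Ccn2, the values of 3 genes moved the same way in both Clock/Bmal1 ESC clones without passing. Vcl had 228 and 274 CPM in treated clones 1 and 7, against 158 and 193 CPM untreated (0.49 ± 0.275, edgeR adjusted p = 0.712). Amotl2 had 138 and 224 CPM treated, against 201.0 and 291 CPM untreated (-0.48 ± 0.298, adjusted p = 0.724). Cnn1 had 23.4 and 43.9 CPM treated, against 18.8 and 32.8 CPM untreated (0.35 ± 0.417, adjusted p = 0.842). The control line, which has no replicate, had Vcl at 139.6 CPM treated and 174 CPM untreated, and Amotl2 at 211 CPM treated and 221 CPM untreated.

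The ClockBmal1DN ESC clones had unlike values. They also differed in transgene level with dox, with Clock at 349 and 1646 CPM and Arntl at 1737 and 4466 CPM in clones 5 and 6. Treated Clock/Bmal1 ESC clones 1 and 7 had Clock at 767 and 628 CPM and Arntl at 2414 and 4523 CPM. The part of these levels in the ESC dox effects was not tested. In clone 6, Acta2 had 102 CPM with dox, against 643 CPM untreated, whereas in clone 5 it had 168 CPM with dox, against 156 CPM untreated. Ankrd1 had 16.1 CPM treated and 100.3 CPM untreated in clone 6, and 24.9 CPM treated and 24.2 CPM untreated in clone 5. Ccn2 had 119 CPM treated and 550.2 CPM untreated in clone 6, and 194 CPM treated and 203 CPM untreated in clone 5. The untreated clone 6 library was the highest of the 10 ESC libraries for Ccn1, Ccn2, Ankrd1, Amotl2, Lats2, Tagln, Acta2 and Cnn1, but not for Srf or Vcl.

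Over both clones the log2 fold change ran from -1.64 ± 0.762 for Ankrd1 and -1.60 ± 0.778 for Acta2 to -0.02 ± 0.205 for Srf. None of the 10 genes passed with edgeR or DESeq2, 2 had an unadjusted p under 0.05, and 0.00444% of all transcripts were called. All 10 values were negative, with a median of -0.954 against -0.0108 over all transcripts. Without the untreated clone 6 library, Acta2 was -0.23, Ankrd1 -0.25, Ccn2 -0.39, Lats2 -0.42, Tagln -0.045 and Ccn1 -0.087. When transcripts with low counts were kept in the fit, 6 of the 10 passed as lower, Ccn1, Ccn2, Ankrd1, Lats2, Tagln and Acta2. Of the 36539 transcripts then tested, 463 were called in all (1.27%). The same fit called 10 of 13 fibroblast markers, described below, as lower.

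Fibroblast markers moved with these genes in ESC. The summed level of 13 markers, collagens and other genes of fibroblasts, was 186 CPM in treated and 1707 CPM in untreated ClockBmal1DN clone 6. It was 382 CPM treated and 341 CPM untreated in clone 5, 283 CPM treated and 264 CPM untreated in Clock/Bmal1 clone 1, 718 CPM treated and 801 CPM untreated in clone 7, and 197 CPM treated and 184 CPM untreated in the control line. The order of the libraries by this sum was close to their order by Acta2, Ankrd1, Ccn2 and Tagln, and not to that by Srf or Vcl. Fap or Lum was at 0 in the control untreated and Clock/Bmal1 clone 1 treated libraries, and all 13 markers had counts in the 8 others. Their part in the ESC values was not tested. Smooth muscle markers summed to 27.3 to 47.6 CPM over the 10 ESC libraries, cardiac markers to 16.6 to 36.5 CPM and endothelial markers to 42.5 to 97.4 CPM. Such sums hide unlike members. Among the smooth muscle markers, Lmod1 ran from 1.37 to 11.5 CPM and Myh11 from 0.168 to 2.55 CPM. The more abundant Des ran from 8.56 to 14.3 CPM and Smtn from 9.94 to 26.7 CPM. In iPSM the fibroblast sum was 35.0 to 47.6 CPM in all 10 libraries.

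**Figure D3:**
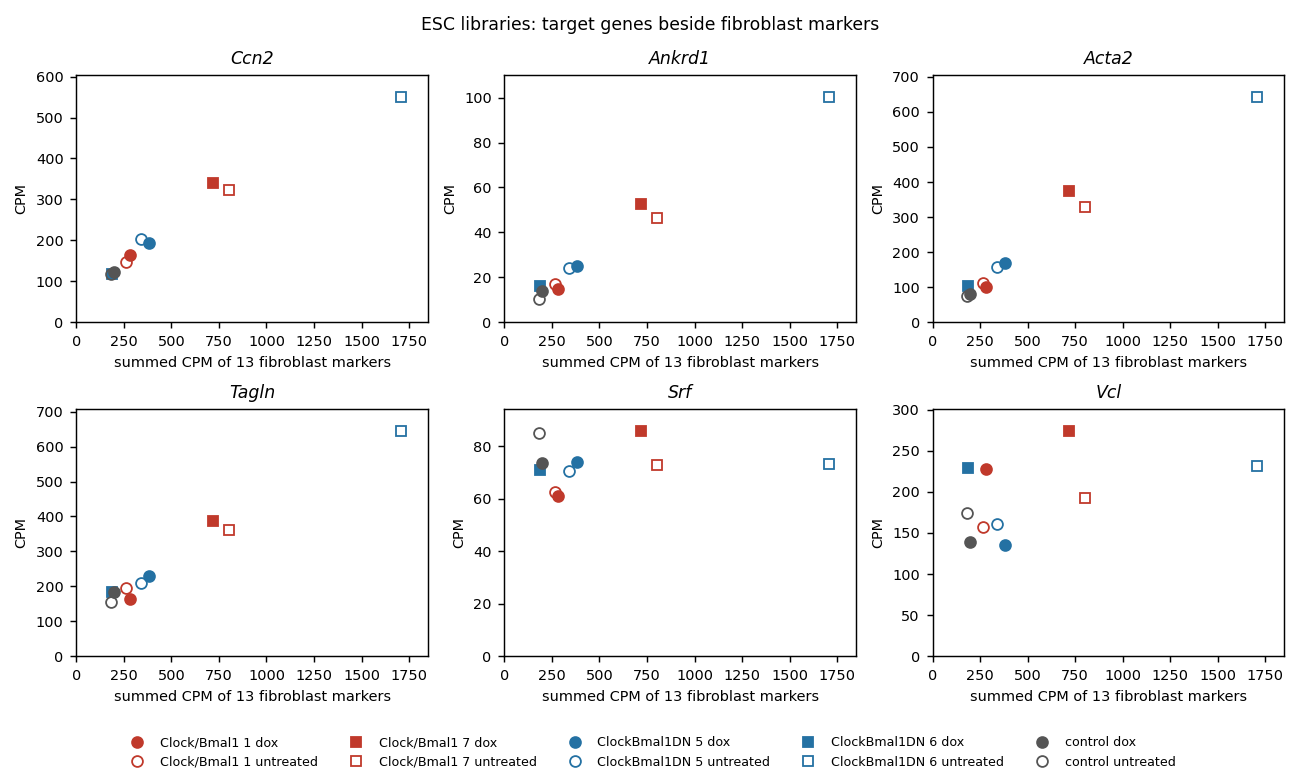
CPM of 6 of the genes against the summed CPM of 13 fibroblast markers in the 10 ESC libraries, on linear axes from 0. Untreated ClockBmal1DN clone 6, with a marker sum of 1707 CPM, is the highest point for Ccn2, Ankrd1, Acta2 and Tagln, whereas Srf and Vcl show no such order.

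The tests of differences between lines in ESC gave no call either. The Clock/Bmal1 effect minus the ClockBmal1DN effect was 1.69 ± 1.06 for Ankrd1, 1.67 ± 1.08 for Acta2, 1.37 ± 0.768 for Ccn2, 1.36 ± 0.734 for Lats2 and 1.04 ± 0.764 for Tagln (edgeR adjusted p = 0.995 each). Of the 10 genes 0 had an unadjusted p under 0.05, DESeq2 called none, and 0.0578% of all transcripts were called. Before dox, Clock/Bmal1 clones had lower values than ClockBmal1DN clones for all 10 genes, with a median of -0.57 against -0.0125 over all transcripts, but none passed with edgeR or DESeq2 and none had an unadjusted p under 0.05 (0.00889% of all transcripts called).

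**Figure D4:**
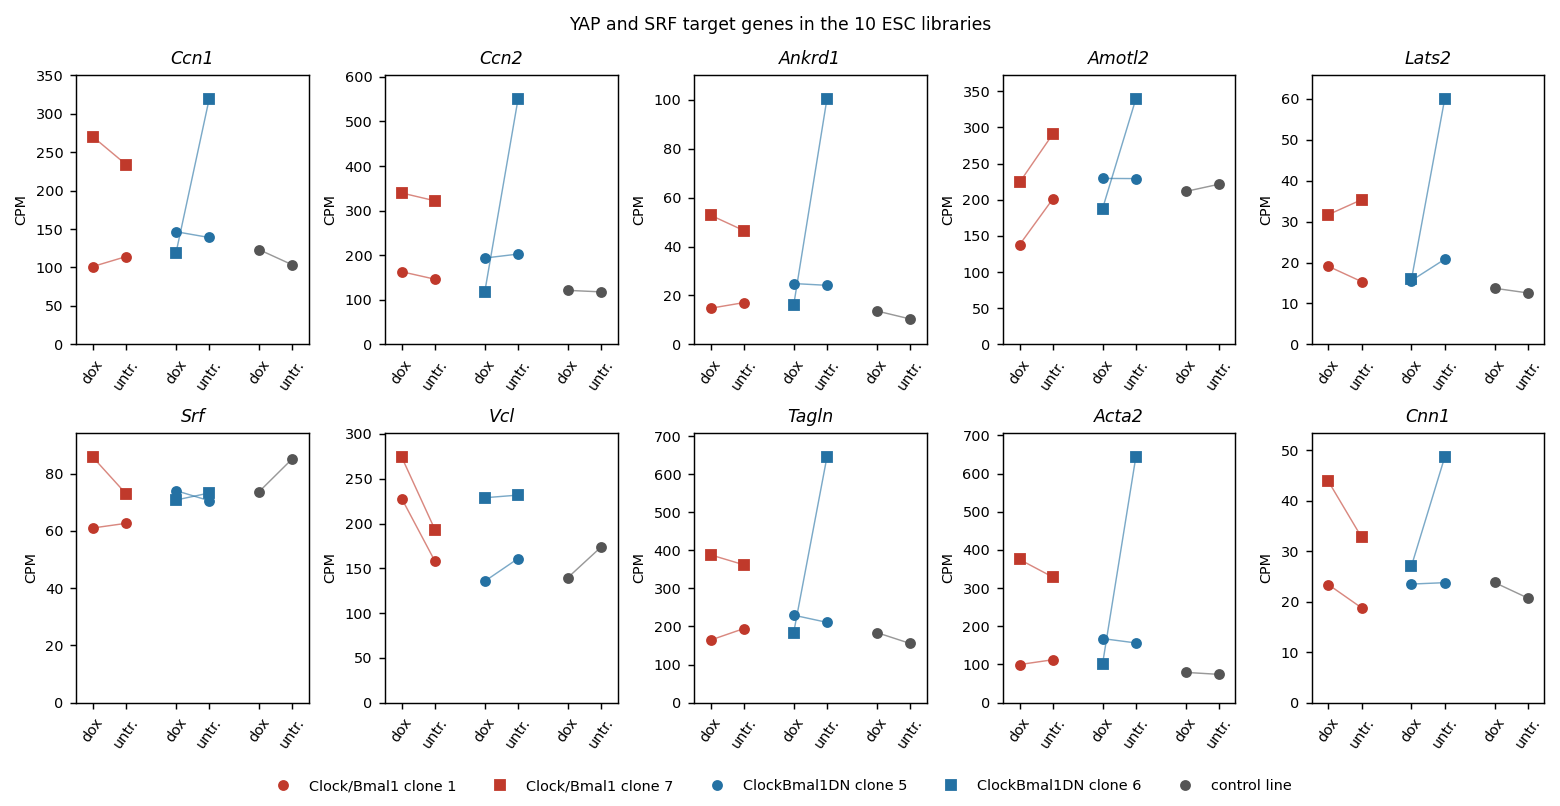
Level of the 10 genes in each ESC library, in CPM on linear axes from 0, with lines joining the treated and untreated library of a clone. Untreated ClockBmal1DN clone 6 stands above the other libraries for 8 genes, and Clock/Bmal1 clone 7 is above clone 1 at either treatment for all 10 genes.

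With edgeR, the pathway lists gave no call in ESC in any of these comparisons when transcripts with low counts were filtered out. With those kept, 4 other YAP and TAZ targets and 3 other SRF and MRTF targets were called lower in ClockBmal1DN clones, and 1 SRF and MRTF target and 2 immediate early targets higher in Clock/Bmal1 clones. For the difference between these effects, 6 other YAP and TAZ targets, 3 other SRF and MRTF targets and 1 immediate early target were then called higher. With low counts kept, 1.27%, 1.47% and 1.12% of all transcripts were called in ClockBmal1DN clones, in Clock/Bmal1 clones and for the difference. In ClockBmal1DN clones, the 17 other YAP and TAZ targets had a median log2 fold change of -0.538 with 15 negative values, and the 17 other SRF and MRTF targets -0.557 with 15 negative values. At an unadjusted p under 0.05 there were 3 and 4 genes. The 9 immediate early targets had a median of 0.811 in Clock/Bmal1 clones, with 2 at an unadjusted p under 0.05 and a smallest adjusted p of 0.101. The Hippo components had medians of 0.26 in Clock/Bmal1 and 0.00612 in ClockBmal1DN clones, and the SRF cofactors 0.448 and 0.024.

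The Clock/Bmal1 effect was also compared between cell types in 1 fit of all 20 libraries. The effect in iPSM minus that in ESC was -1.48 ± 0.639 for Ccn2, -1.23 ± 0.605 for Ccn1 and -0.34 ± 0.354 for Amotl2 (log2 ± SE, edgeR adjusted p = 1.00 each). None of the 10 genes passed with edgeR or DESeq2, 1 had an unadjusted p under 0.05, and 0.00% of all transcripts were called. With transcripts of low counts kept, Ccn2 (-1.38, adjusted p = 0.00279) and Ccn1 (-1.13, adjusted p = 0.0483) passed, of 87 in all (0.202% of transcripts).

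Of the contrasts fitted, that between the cell types gave the largest differences in the group. In untreated clones, 8 of the 10 genes were lower in iPSM than in ESC and 0 were higher, where 60.0% of the 26689 transcripts tested were called, 28.8% lower and 31.3% higher. The median was -1.93 on the log2 scale, against 0.0527 over all transcripts. Ankrd1 averaged 0.893 ± 0.502 CPM in untreated iPSM clones and 47.0 ± 37.7 CPM in untreated ESC clones (SD, n = 4 each), a log2 fold change of -5.66 ± 0.605 (SE, edgeR adjusted p = 1.24e-06).

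Ccn2 averaged 8.09 ± 1.89 CPM in iPSM and 305 ± 179 CPM in ESC (SD, n = 4 each), with a log2 fold change of -5.22 ± 0.367 (edgeR adjusted p = 1.87e-08). Ccn1 averaged 30.3 ± 6.29 CPM in iPSM and 201 ± 93.7 CPM in ESC (-2.73 ± 0.320, adjusted p = 3.08e-06). Amotl2 averaged 72.0 ± 5.39 CPM in iPSM and 265 ± 62.0 CPM in ESC (-1.88 ± 0.182, adjusted p = 4.70e-07). For each of these genes the highest iPSM clone lay below the lowest ESC clone.

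Among the smooth muscle genes, Acta2 averaged 33.8 ± 4.75 CPM in iPSM and 310.0 ± 241 CPM in ESC (-3.13 ± 0.459, edgeR adjusted p = 2.84e-05), and Tagln 87.3 ± 10.9 CPM in iPSM and 353 ± 209 CPM in ESC (-1.98 ± 0.312, adjusted p = 5.70e-05). Srf averaged 31.8 ± 3.79 CPM in iPSM and 69.9 ± 4.95 CPM in ESC (-1.14 ± 0.135, adjusted p = 3.59e-06), with little spread in either. Lats2 averaged 14.9 ± 2.86 CPM in iPSM and 32.9 ± 19.9 CPM in ESC (-1.10 ± 0.301, adjusted p = 0.00507), and the clones overlapped. Cnn1 (-0.45 ± 0.239, adjusted p = 0.118) and Vcl (-0.24 ± 0.157, adjusted p = 0.201) did not pass.

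The ESC means rest partly on the clones with high fibroblast markers. With ESC clones 6 and 7 left out, Ankrd1 was still -4.58, Ccn2 -4.48, Ccn1 -2.12, Acta2 -2.02 and Tagln -1.27. That did not remove the fibroblast markers. Untreated ESC clones 1 and 5, which remained, had marker sums of 264 and 341 CPM, against 41.2 to 45.4 CPM in untreated iPSM clones. In that fit the Lats2 call was lost (-0.32) and Cnn1 turned to 0.03. Lats2 was also lost without untreated ClockBmal1DN ESC clone 6 alone (-0.63, adjusted p = 0.0517). Without that library Ankrd1 was -4.97, Acta2 -2.46 and Tagln -1.47.

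**Figure D5:**
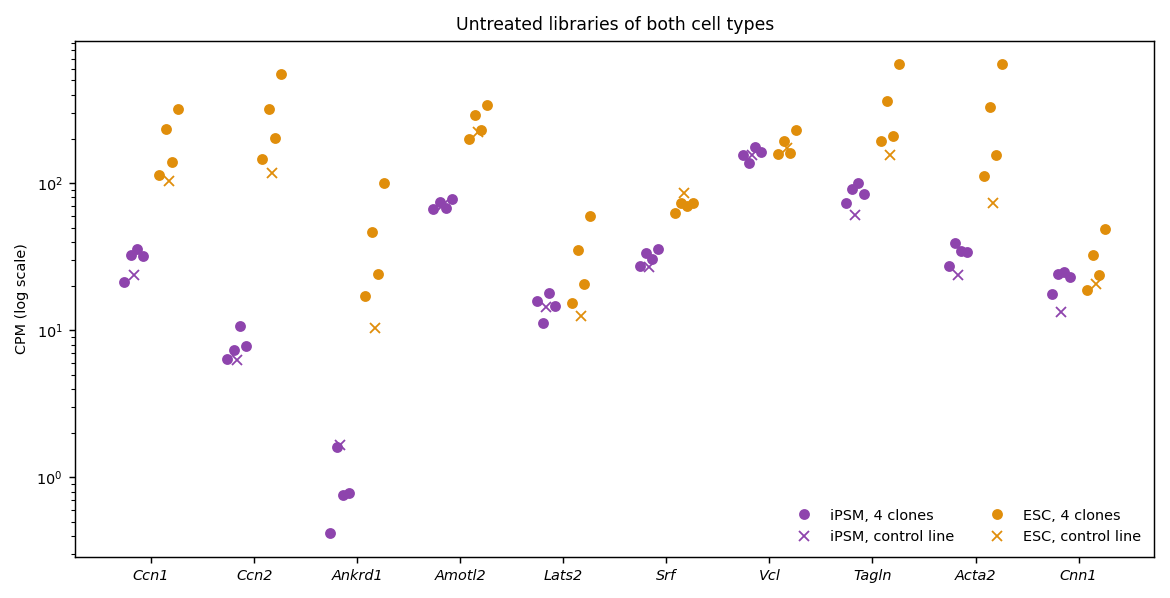
CPM of the 10 genes in the untreated libraries, on a log axis, with iPSM left of ESC for each gene. Points are the 4 transgenic clones and crosses the control line of each cell type. The iPSM and ESC clones do not overlap for Ccn1, Ccn2, Ankrd1, Amotl2, Srf, Tagln and Acta2, and they overlap for Lats2, Cnn1 and Vcl.

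The wider lists differed between cell types in mixed ways, where 28.8% of all transcripts tested were called lower and 31.3% higher in iPSM. Of 17 other YAP and TAZ targets, 10 were lower and 4 higher in iPSM (median -0.858). The lower ones included F3 (-3.17 ± 0.266), the kinase gene Nuak2 (-2.36 ± 0.211) and the receptor tyrosine kinase gene Axl (-3.85 ± 0.374), and the higher ones Nt5e, which encodes the ectonucleotidase CD73 (2.88 ± 0.245), and Asap1 (1.74 ± 0.204). Of 17 other SRF and MRTF targets, 14 were lower and 1 was higher (median -1.35). Calponin 2, Cnn2 (-2.83 ± 0.182), cytoplasmic gamma actin, Actg1 (-1.87 ± 0.121), non-muscle myosin, Myh9 (-1.85 ± 0.136), and filamin A, Flna (-1.28 ± 0.125), were among the lower ones, and zyxin, Zyx (0.73 ± 0.225), was the higher one. All named genes of these lists had edgeR adjusted p-values under the 0.05 threshold.

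The regulators were split. Of 20 Hippo components, 9 were higher and 4 lower in iPSM (median 0.274), against 31.3% higher and 28.8% lower over all transcripts. The kinase Stk3 (1.49 ± 0.119), its partner Sav1 (1.42 ± 0.163), the LATS activator Mob1b (2.71 ± 0.194), Lats1 (1.35 ± 0.177), the scaffold Amot (1.96 ± 0.251) and Yap1 itself (0.94 ± 0.216) were higher. The LATS inhibitor Ajuba (-2.79 ± 0.122) and the DNA-binding partner Tead4 (-1.20 ± 0.328) were lower. Tead4 was scarce, with means of 1.83 CPM in untreated iPSM clones and 3.96 CPM in untreated ESC clones. The other TEAD genes were split. In the same order, Tead1 had means of 193 and 91.9 CPM, Tead2 of 147 and 92.5 CPM, and Tead3 of 7.18 and 12.1 CPM. Of 6 SRF cofactors, 3 were higher, Mrtfa (1.22 ± 0.273), Mrtfb (1.39 ± 0.193) and Elk4 (1.52 ± 0.285), and 1 lower, Elk3 (-0.57 ± 0.233, adjusted p = 0.0466). Elk3 was lost without untreated ESC clone 6 or 7 or without untreated iPSM clone 7, 19 or 20.

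Of 9 immediate early targets, 3 were lower, Junb (-3.02 ± 0.177), Mcl1 (-1.60 ± 0.101) and Ier2 (-0.83 ± 0.167), and 2 higher, Egr3 (3.71 ± 0.505) and Egr1 (1.11 ± 0.455, adjusted p = 0.0460). Over all transcripts, 28.8% were called lower and 31.3% higher. Egr1 was 0.31 without untreated iPSM clone 12 (adjusted p = 0.556), and its call was also lost without the control line, without untreated ESC clone 5 or 7 and without untreated iPSM clone 7 or 19. With ESC clones 6 and 7 left out, the other SRF and MRTF targets still had 14 lower and 1 higher, and the other YAP and TAZ targets had 8 lower and 5 higher of 16.

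Levels were compared between the genes on the deposited rpkm, which divides by the gene body length with introns. In untreated iPSM clones the order was Tagln (14.2 ± 1.71 rpkm, SD, n = 4), Ccn1 (10.5 ± 2.09), Amotl2 (4.77 ± 0.263), Srf (4.22 ± 0.414), Ccn2 (2.62 ± 0.644), Acta2 (2.43 ± 0.267), Cnn1 (2.26 ± 0.310), Vcl (1.58 ± 0.207), Lats2 (0.278 ± 0.0613) and Ankrd1 (0.113 ± 0.0588). The neighbours Tagln and Ccn1, Amotl2 and Srf, Ccn2 and Acta2, and Acta2 and Cnn1 had overlapping mean ± SD ranges. In untreated ESC clones Ccn2 led (86.1 ± 50.3 rpkm, SD, n = 4), before Ccn1 (61.2 ± 28.4), Tagln (50.02 ± 29.5), Acta2 (19.5 ± 15.1), Amotl2 (15.4 ± 3.58), Srf (8.14 ± 0.619), Ankrd1 (5.28 ± 4.21), Cnn1 (2.73 ± 1.15), Vcl (1.63 ± 0.299) and Lats2 (0.531 ± 0.321). There the ranges of all neighbours overlapped except those of Amotl2 and Srf and of Vcl and Lats2. On this measure Ccn2 had the highest mean of the 10 genes in ESC, whereas 4 genes stood above it in iPSM. The order depends on gene body length, which ran from 3005 bases for Ccn1 to 104278 bases for Vcl. In CPM, which is not divided by length, Tagln (353 CPM) and Acta2 (310 CPM) had higher means than Ccn2 (305 CPM) in untreated ESC clones.

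The 10 genes did not all form 1 block across libraries. Over the 10 iPSM libraries, log2 CPM of Ccn1 correlated with that of Ccn2 at r = 0.951 and with that of Amotl2 at r = 0.914, and Ccn1 correlated with Lats2 at r = 0.282. These correlations are descriptions over libraries that share clones and treatments. The transcripts most like Ccn1 in iPSM were Klf6 (r = 0.959), a zinc finger factor gene, Nyap1 (r = 0.946) and Enc1 (r = 0.931), and those most like Amotl2 were Sp5 (r = 0.974), Enc1 (r = 0.966) and Dusp5 (r = 0.955), which encodes an ERK phosphatase. Over the 10 ESC libraries, Ccn1, Ccn2, Ankrd1, Lats2, Tagln, Acta2 and Cnn1 correlated with each other at r = 0.881 to 0.996. Acta2 and Ankrd1 had the highest of these values (r = 0.996), and both were most like Tgfb3 (r = 0.997 and 0.996). Srf had no neighbour above r = 0.947 in ESC, and Amotl2 and Vcl correlated at r = 0.0296.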

How the data were processed

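RNA of 10 iPSM and 10 ESC samples was sequenced as stranded total RNA in paired ends, per the labels' protocols. Reads were handled with bcl2fastq, STAR 2.7.2a and HOMER on mm10, per the submitters' processing notes. The authors deposited, per cell type, gene-body read counts in steps of 0.5 (expected counts) and the same counts per M reads and per kb of gene body with introns as rpkm. Of the counts, 19.3% in iPSM and 16.9% in ESC ended in 0.5, and all were rounded to whole numbers.

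Each cell type (6 groups) and all 20 libraries together (12 groups) were fitted with edgeR 4.0.16 under R 4.3.3 (TMM, filterByExpr, quasi-likelihood F test, two-sided, Benjamini-Hochberg threshold 0.05). The SE was taken as the absolute log2 fold change over the root of F. CPM levels use TMM factors over 20 libraries, and log2 differences within a line those over the 10 libraries of the cell type, with a prior count of 2. The steps were also run on simulated counts. These held no differences between clones, so they cannot test how clones were handled. Alternatives were DESeq2 1.42.0, RLE factors, no filter on low counts, no control line, clone as a replicate block and each library left out, and, chosen after seeing the data, ESC clones 6 and 7 left out. Treated and untreated libraries of a number are the same clone, which pairs them. Their deviations from the group means correlated at 0.189 (iPSM Clock/Bmal1), 0.0872 (iPSM ClockBmal1DN), 0.422 (ESC Clock/Bmal1) and -0.0125 (ESC ClockBmal1DN).

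The members, lists, tests and alternatives were chosen with earlier results of these data known. Named genes are the 10 members, up to 4 genes of a list that passed in each direction, the 3 transcripts most correlated with a member, and Clock and Arntl. Yap1, Lats1, Tead1, Tead2, Tead3, Lmod1, Myh11, Des, Smtn and the 7 transcripts that fell were named after their values were seen. Reads carry no molecular identifiers. Promoters are RefSeq windows of GRCm38.p6 matched by symbol.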

Additional observations from a re-analysis of the deposited data

Results flagged for a closer look

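In 4 instances the clones of one group all moved one way with dox and those of another group the opposite way. In ESC, Ccn2 differed by 0.14 and 0.035 (log2, treated minus untreated, scaled over the 10 libraries of the cell type) in Clock/Bmal1 clones 1 and 7, and by -0.069 and -2.27 in ClockBmal1DN clones 5 and 6, and the fitted difference was 1.371. Cnn1 differed by 0.30 and 0.38 in the Clock/Bmal1 clones and by -0.021 and -0.90 in the ClockBmal1DN clones, with a fitted difference of 0.9054. Vcl differed by 0.51 and 0.46 in the Clock/Bmal1 clones and by -0.25 and -0.077 in the ClockBmal1DN clones, with a fitted difference of 0.6306. Between cell types, Ccn2 differed by -1.12 and -1.58 in iPSM Clock/Bmal1 clones 12 and 20 and by 0.14 and 0.035 in ESC Clock/Bmal1 clones 1 and 7, with a fitted difference of -1.482. The test of each difference with edgeR missed the threshold (adjusted p = 0.995 for the 3 ESC values and 1.00 between cell types). No group had the 4 samples that a search for single outlying samples needs.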

How the results depend on the processing

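Of the 1074 recomputed values of single genes, 1004 kept their direction and side of the threshold, 31 lost and 25 gained it, and 14 reversed. Without a filter on low counts the members called were 6 in ClockBmal1DN ESC, 5 for the Clock/Bmal1 against ClockBmal1DN difference in ESC, 1 between untreated ESC clones (Acta2) and 2 for Clock/Bmal1 in iPSM against ESC, in place of 0 each, and transcripts called were 463, 410, 45 and 87, in place of 1, 13, 2 and 0. In the same order, the calls without the filter were 1.27%, 1.12%, 0.123% and 0.202% of the transcripts tested. In Clock/Bmal1 iPSM the count of 2 ran from 0 to 3 with 1 library left out (0 without treated clone 20). It was 3 with DESeq2, no filter or clone as a replicate block. Transcripts called were then 376 (1.52%), 597 (1.44%) and 375 (1.51%), in place of 254 (1.02%). The block added Amotl2 (-0.77) and changed no other call among the members. Leaving out 1 library reversed the sign of these uncalled values: Ankrd1 (-2.14 to 0.22), Lats2 (-0.48 to 0.033), Acta2 (-0.41 to 0.086), Cnn1 (-0.34 to 0.12) and Vcl (-0.16 to 0.023) in Clock/Bmal1 iPSM, Srf (-0.058 to 0.026), Cnn1 (-0.99 to 0.068) and Vcl (-0.55 to 0.20) in ClockBmal1DN ESC, Cnn1 (-0.12 to 0.82) in Clock/Bmal1 ESC and Amotl2 (-0.63 to 0.051) for Clock/Bmal1 in iPSM against ESC. Cnn1 between untreated iPSM and ESC was 0.029 with ESC clones 6 and 7 left out. The cause was not tested. With 2 clones per group and 4 residual degrees of freedom per cell type, small differences could not be detected, and an arm left with 1 library is assumed to vary like the others.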
